A study of Mus musculus with 21 samples.

Results

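The matrix metalloproteases (Mmp), the Adam and Adamts proteases and their tissue inhibitors (Timp) were examined in sorted cells of the embryonic mouse pancreas. Members were the genes whose array probe set carried exactly 1 gene symbol beginning with Mmp, Adam, Adamts or Timp and a number, with the highest-mean probe set standing for the gene. They numbered 78 of the 19296 genes measured in this way: 34 Adam, 18 Adamts, 22 Mmp and 4 Timp genes. Cells came from pancreata of a mixed C57-Bl6/SV129/CD1 background that carried FVF, a fusion of the endodermal transcription factor Foxa2 to the fluorescent protein Venus, and were sorted into FVF+ and FVF- fractions. Samples covered the 4 embryonic days from E12.5 to E15.5, with 3, 2, 3 and 3 samples of FVF+ cells on successive days and 2, 2, 3 and 3 of FVF- cells. The labels do not say how many copies of the fusion the embryos carried. Replicates are called biological, with nothing said of separate embryos or litters, and p-values therefore measure the spread between these samples.

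Mmp proteins are zinc-dependent enzymes that cut collagens, gelatin and other matrix proteins, and Timp proteins bind and block their active sites. Adam proteins sit in the cell membrane, where several of them release the outer parts of growth factors, Notch and adhesion molecules. Adamts proteins are secreted and act on proteoglycans such as versican and aggrecan or on procollagens. In the developing pancreas a branching epithelium grows into a mesenchyme that makes much of the surrounding matrix.

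The values were log2 signals, so a difference of 1 is a 2-fold difference in signal, and levels of different probe sets were not set against each other. A difference was called where its adjusted p in limma, taken across all 19296 genes, was under 0.05, and errors given after a log2 difference are standard errors (SE). The sort largely followed cell type: all 8 epithelial, all 8 endocrine and all 8 acinar marker genes were higher in FVF+ cells, and all 10 mesenchymal, all 8 endothelial and all 10 macrophage markers were lower. All 7 smooth muscle and pericyte markers were lower too. Of 6 mesothelial markers 4 were lower, and of 9 mast cell and neutrophil markers 8 were lower and 1 higher. Of 6 red blood cell markers 5 were lower and 1 higher, and of 6 neural crest, glia and neuron markers 4 were lower and 1 higher. The FVF+ E12.5 replicate 1 stood apart in its mesenchymal markers. Its list median was 9.69 against 7.94 and 7.70 in the other 2 samples of its group, and both FVF+ E13.5 samples were at 9.60 to 9.61. The deviation was not confined to mesenchyme. In the mesothelial list this replicate 1 was at 8.51, against 7.61 and 7.41 in the other 2. It was also the highest of its group in the smooth muscle and pericyte, macrophage and endothelial lists. By list median it was narrowly so in the mast cell and neutrophil and the red blood cell lists, but not in the neural crest, glia and neuron list. The highest red blood cell gene, however, was at 11.18 in this sample, against 9.10 and 8.41 in the other 2. Other FVF+ samples stood apart in the endothelial list. There E13.5 replicate 2 was at 8.96 against 7.92, and E14.5 replicate 2 at 9.18 against 8.24 and 8.37. In FVF- cells the lowest and highest list medians of the acinar markers were 7.40 and 7.68 at E12.5 and 9.47 and 10.28 at E15.5. In sorted populations, fewer cells of a type and less RNA per cell cannot be told apart.

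Of the 78 members, 33 had a mean signal above that of the median gene (8.83) in at least 1 group and are called brighter here. The other 45 stayed below it in every group and are called dimmer, which is a description of signal and not a call of absence. A member could enter the brighter set through the group where it was high, so no count of differences within that set is given. Most brighter members that were lower in FVF+ cells had their highest FVF+ E12.5 signal in replicate 1. The median excess of that sample over the other 2 was 0.24 for these members. For brighter members that were higher in FVF+ cells it was -0.21. The brighter set held 14 of 18 Adamts, 9 of 34 Adam, 7 of 22 Mmp and 3 of 4 Timp genes. It held none of the 21 germline Adam genes, which are known from testis and sperm, and none of the 4 collagenases.

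The letters before the transcription start were set beside the signal. RefSeq promoters on GRCm38.p6 were found for 48 members, 18 brighter and 30 dimmer, and the 250 bases before the start were searched on both strands for 4 motifs: the AP-1 site TGANTCA, the TATA box TATAAA, the GC box GGGCGG and the forkhead site TGTTTAC. Where RefSeq lists several promoters for a gene, the first was used. The AP-1 site lay in 0 of 18 brighter and 10 of 30 dimmer promoters (33.3%), against 6.9% of all 27025 promoters. The TATA box lay in 5.6% of brighter and 36.7% of dimmer promoters, against 13% of all. The GC box ran the other way, with 66.7% of brighter promoters and 6 of 30 dimmer ones, against 32.9% of all. The forkhead site, the motif family that Foxa2 binds, was in 5.6% of brighter promoters and 3 of 30 dimmer ones, against 3.1% of all. Median GC content was 65.6% in brighter and 41.6% in dimmer promoters. Each match is a description of letters in a window and not a measured binding site. The background was every gene with a RefSeq promoter, measured here or not, and was not split by signal. Whether brighter and dimmer genes in general differ in the same way was not tested.

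**Figure D1:**
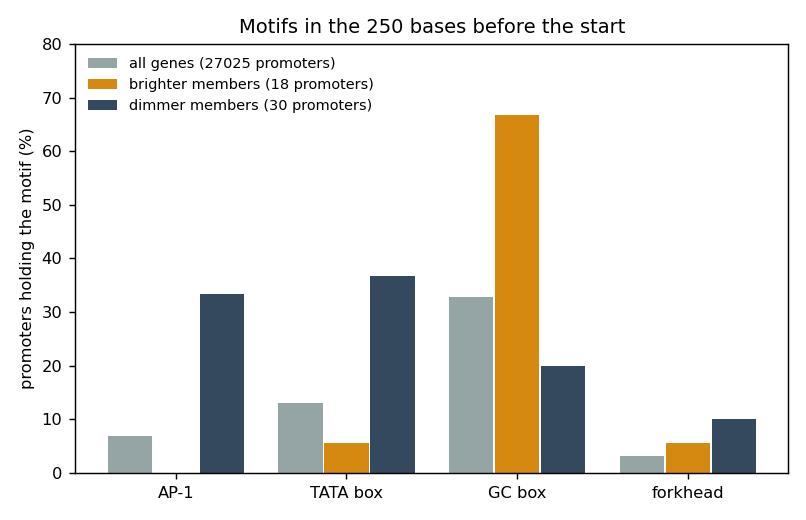
Share of promoters (percent, y axis) that hold each motif within 250 bases before the start, for all 27025 promoters, 18 brighter members and 30 dimmer members. The AP-1 bar of brighter members is at 0 and that of dimmer members at 33.3%, while the GC box is highest in brighter members, at 66.7%.

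Of the 10 dimmer promoters with an AP-1 site, 7 lay in a run of 10 adjacent genes on chromosome 9: Mmp13, Mmp12, Mmp1b, Mmp3, Mmp1a, Mmp10, Mmp8, Mmp27, Mmp20 and Mmp7. Runs of this kind arise by gene duplication, so these promoters share descent and are not independent examples. The remaining dimmer promoters with an AP-1 site were among 7 member promoters that are not given by gene here. Of the 10 promoters of the run, 7 held both an AP-1 site and a TATA box and 0 held a GC box. The AP-1 sites of these 7 began between 35 and 95 bases before the start. The 3 promoters below are shown as examples of that layout, from Mmp10 at chr9:7502092-7502341, Mmp3 at chr9:7445572-7445821 and Mmp13 at chr9:7272264-7272513, all on the plus strand, with capitals marking the 4 motifs.
Mmp10: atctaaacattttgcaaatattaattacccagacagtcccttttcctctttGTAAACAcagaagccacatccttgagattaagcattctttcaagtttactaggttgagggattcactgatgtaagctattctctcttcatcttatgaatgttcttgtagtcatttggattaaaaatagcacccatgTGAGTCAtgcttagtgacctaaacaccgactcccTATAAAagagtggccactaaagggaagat
Mmp3: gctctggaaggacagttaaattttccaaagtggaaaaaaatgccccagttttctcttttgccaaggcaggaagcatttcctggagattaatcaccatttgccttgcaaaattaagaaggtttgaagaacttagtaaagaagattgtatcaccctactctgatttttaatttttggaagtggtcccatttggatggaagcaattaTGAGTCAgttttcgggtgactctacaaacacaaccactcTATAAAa
Mmp13: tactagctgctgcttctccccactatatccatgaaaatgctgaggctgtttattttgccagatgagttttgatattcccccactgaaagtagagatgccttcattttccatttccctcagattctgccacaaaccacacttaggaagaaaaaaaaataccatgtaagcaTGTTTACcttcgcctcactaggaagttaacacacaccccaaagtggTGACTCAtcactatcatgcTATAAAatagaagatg
Apart from Mmp8, every gene of the run stayed at or below a log2 signal of 7.40 in all 21 samples, and their mean sort differences lay between -0.04 and 0.20. The AP-1 match began 63 bases before the start in Mmp10, 46 in Mmp3 and 35 in Mmp13. Mmp3 and Mmp10 encode stromelysins and Mmp13 a collagenase, enzymes that are known to be induced in wounds and inflammation.

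The next 3 promoters belong to members whose signal moved with sort and day, and are shown for contrast: Adamts1 at chr16:85803114-85803363 on the minus strand, Mmp14 at chr14:54431348-54431597 and Timp3 at chr10:86300162-86300411, both on the plus strand. Capitals mark the same motifs.
Adamts1: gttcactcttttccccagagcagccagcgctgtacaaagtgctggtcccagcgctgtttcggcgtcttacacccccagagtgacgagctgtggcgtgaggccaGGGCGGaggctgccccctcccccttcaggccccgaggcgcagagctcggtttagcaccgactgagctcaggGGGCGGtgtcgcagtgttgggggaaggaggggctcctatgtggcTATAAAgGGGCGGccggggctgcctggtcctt
Mmp14: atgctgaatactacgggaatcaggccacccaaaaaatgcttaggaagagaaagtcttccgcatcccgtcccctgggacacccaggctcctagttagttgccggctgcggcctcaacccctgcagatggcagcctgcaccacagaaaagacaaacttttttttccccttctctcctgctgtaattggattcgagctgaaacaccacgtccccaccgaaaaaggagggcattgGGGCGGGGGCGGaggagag
Timp3: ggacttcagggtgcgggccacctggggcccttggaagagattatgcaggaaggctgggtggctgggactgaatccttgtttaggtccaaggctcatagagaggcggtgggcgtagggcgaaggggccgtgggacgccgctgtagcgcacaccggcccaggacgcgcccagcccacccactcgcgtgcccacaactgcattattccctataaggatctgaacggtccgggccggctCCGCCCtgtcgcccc
Adamts1 held 3 GC boxes and a TATA box that began 32 bases before the start, Mmp14 held 2 adjoining GC boxes, and Timp3 held 1 GC box. No AP-1 or forkhead letters were found in these 3 windows, and no matches overlapped in the 6 windows printed here.

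Across the mean of the 4 days, 33 members were lower in FVF+ than in FVF- cells and 14 were higher, of 78. Among all genes 25.2% were lower and 30.5% higher, so members were lower more often than the background and higher less often. Differences of at least 2-fold that passed the test were lower in 22 members and higher in 2, where among all genes 6.7% were lower and 5.14% higher by as much. The median difference of the members was -0.04, against 0.03 over all genes, and 45 of the 78 were dimmer members with differences between -0.83 and 0.27. Called dimmer members were Adam2, Adam21, Adam24, Adam34, Adamts18, Mmp7 and Mmp27 on the higher side and Adam3, Adam8, Adam26b, Adam33, Adamts20, Mmp8, Mmp25 and Mmp28 on the lower side. By family the lower and higher counts were 11 and 5 for Adamts, 10 and 2 for Mmp, and 9 and 7 for Adam, and 3 Timp genes were lower.

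**Figure D2:**
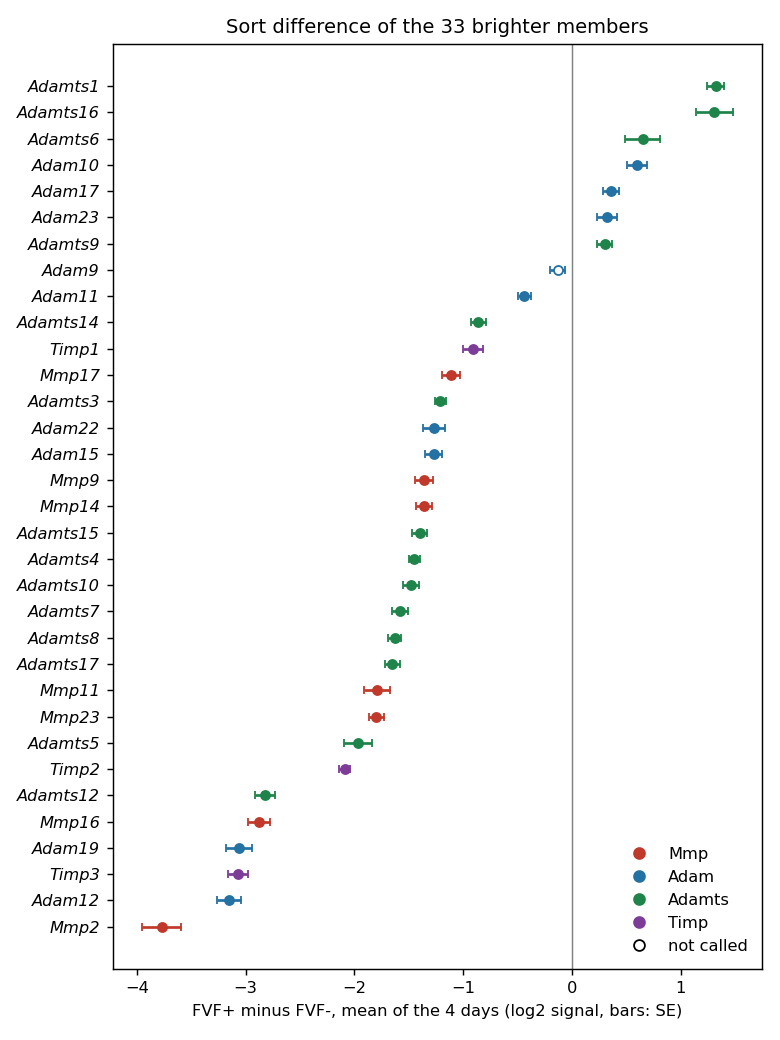
Mean difference between FVF+ and FVF- cells over the 4 days (log2, x axis) for the 33 brighter members, coloured by family. Bars show the SE, and open symbols mark differences that were not called. Members could enter this set through the group where they were high, so the share of called points is not a result. Mmp2 lies lowest at -3.77 and Adamts1 highest at 1.32.

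The count of lower members was above the share in all genes on each day. On E12.5 it was 28 (18.7% of all genes were lower) and on the next day 25 (15.2%). E14.5 had 33 (21.5%), and the last day had 32 (19.5%). Higher members numbered 8 on E12.5 (17.2% of all genes were higher) and 5 on the next day (15.8%). E14.5 had 3 (23.1%), and the last day had 5 (24.4%). The higher count at E15.5 rested on the scaling: with each array centred on its median, 10 members were higher and 31 lower on that day.

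Both gelatinases were lower in FVF+ cells. Mmp2, which cuts denatured collagen and type IV collagen, had the largest difference of any member. Its log2 signal ran from 8.18 to 10.16 in the 11 FVF+ samples, with a median of 9.37, and from 12.74 to 13.51 in the 10 FVF- samples, with a median of 13.04. The sorts did not overlap, and the mean difference was -3.77 (SE 0.18, adjusted p = 1.9e-12), a 13.6-fold lower signal in FVF+ cells. Within FVF+ the Mmp2 signal was 10.03, 8.53 and 8.18 at E12.5 and 9.81 and 10.16 at E13.5, so its 3 highest values stood in the same samples as the 3 highest mesenchymal medians. The part of that marker list in the result was not tested. In FVF+ its change from E12.5 to E15.5 was 0.27 (SE 0.33, adjusted p = 0.525), and without FVF+ E12.5 replicate 1 it was 0.83 (adjusted p = 0.00939). Mmp9, the other gelatinase, lay between 7.03 and 7.71 in FVF+ and between 8.41 and 9.09 in FVF- samples, a difference of -1.36 (SE 0.08, adjusted p = 2.3e-11).

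Of the 5 membrane-type Mmp genes 4 were lower in FVF+ cells (25.2% of all genes). Mmp14, the membrane enzyme that activates the Mmp2 proenzyme, lay between 10.18 and 11.53 in FVF+ and between 11.97 and 12.64 in FVF- samples. The sorts did not overlap, with a mean difference of -1.36 (SE 0.07, adjusted p = 1.7e-12). Mmp16 differed more, by -2.88 (SE 0.10, adjusted p = 2.7e-14), with 7.51 to 8.50 in FVF+ and 10.19 to 11.24 in FVF- samples. Mmp17 differed by -1.11 and Mmp25 by -0.65, whereas Mmp24, known from the nervous system, had a difference of -0.01 (adjusted p = 0.916).

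Among the other Mmp genes, Mmp11, or stromelysin 3, lay between 8.19 and 10.44 in FVF+ and between 10.69 and 11.93 in FVF- samples. Its difference was -1.79 (SE 0.12, adjusted p = 1.4e-10). Mmp8, the only called member of the 4 collagenases, was lower by 0.82 on the log2 scale, at dim signals. Mmp23 differed by -1.80 and Mmp28 by -0.83, each without overlap of the sorts. Mmp19 and Mmp21 were not called in the mean of the days, with 0.04 and 0.07. Mmp27 was higher in FVF+ by 0.17 and Mmp7, or matrilysin, by 0.20, both at dim signals. The Mmp7 difference was 0.14 (adjusted p = 0.0506) without FVF- E13.5 replicate 1.

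Of the 4 inhibitors 3 were lower in FVF+ cells (25.2% of all genes), the same direction as the gelatinases. Timp3, which binds to the matrix and also blocks several Adam and Adamts enzymes, lay between 8.38 and 10.21 in FVF+ samples (median 9.05) and between 11.74 and 12.69 in FVF- samples (median 12.49). The sorts did not overlap, and its difference was -3.07 (SE 0.09, adjusted p = 3.3e-15), or 8.42-fold. Timp2, an inhibitor that also joins Mmp14 in the activation of Mmp2, lay between 9.82 and 10.72 in FVF+ and between 12.08 and 12.68 in FVF- samples, a difference of -2.09 (SE 0.05). Timp1 lay between 7.88 and 9.67 in FVF+ and between 9.54 and 10.38 in FVF- samples. The Timp1 ranges met at their ends, and its difference was -0.91 (SE 0.09, adjusted p = 7.6e-08). Timp4 stayed between 6.24 and 6.91 in all samples and was not called, with a difference of -0.12 (SE 0.06, adjusted p = 0.104).

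Of the 9 widely expressed Adam genes 5 were lower (25.2% of all genes) and 2 higher (30.5%) in FVF+ cells. Adam12 and Adam19, which are known from mesenchyme, had the largest differences of the 9. Adam12 lay between 7.49 and 8.75 in FVF+ and between 10.78 and 11.33 in FVF- samples (difference -3.15, SE 0.11). Adam19 lay between 7.69 and 9.19 in FVF+ and between 11.23 and 11.80 in FVF- samples (difference -3.06, SE 0.12). Adam15 was lower by 1.27 on the log2 scale, without overlap, and Adam8 and Adam33 by 0.30 and 0.22. Adam10 and Adam17, the main sheddases of Notch and of EGF receptor ligands, went the other way. Adam10 lay between 11.40 and 11.93 in FVF+ and between 10.47 and 11.39 in FVF- samples, and was higher in FVF+ by 0.60 (SE 0.09, adjusted p = 9.8e-06). Adam17 lay between 10.45 and 10.91 in FVF+ and between 9.91 and 10.48 in FVF- samples, so the sorts overlapped slightly, and was higher by 0.36 (SE 0.07, adjusted p = 0.00012). Adam9 was not called, with -0.13 (SE 0.07, adjusted p = 0.117), and Adam28 was not called at 0.05.

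Adam11, Adam22 and Adam23 lack a working catalytic site and act as adhesion proteins in nerve cells. Adam22 was lower in FVF+ by 1.27 and Adam11 by 0.44 on the log2 scale, and Adam23 was higher by 0.32 (SE 0.09, adjusted p = 0.00531), or by 0.24 (adjusted p = 0.0649) when E13.5 was left out. Adam23 overlapped between the sorts, from 8.24 to 9.38 in FVF+ and from 8.25 to 8.64 in FVF- samples. Of the 21 germline Adam genes 4 were higher (30.5% of all genes) and 2 lower (25.2%), and the differences of all 21 lay between -0.17 and 0.27.

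The Adamts genes held both members that were higher in FVF+ cells by at least 2-fold. Adamts1, which cuts versican and aggrecan, lay between 11.87 and 13.17 in FVF+ (median 12.57) and between 10.82 and 11.82 in FVF- samples (median 11.39). The sorts did not overlap, and it was higher in FVF+ by 1.32 (SE 0.08, adjusted p = 1.2e-10), or 2.49-fold. Adamts16 lay between 9.81 and 11.45 in FVF+ and between 7.94 and 10.27 in FVF- samples, with overlap, and was higher by 1.31 (SE 0.17, adjusted p = 2.1e-06). Adamts6 was higher by 0.65 (SE 0.16, adjusted p = 0.00193), again with overlap. Adamts9, a further versican-cutting enzyme, was higher by 0.30 (SE 0.07). Its 6 probe sets disagreed on the mean of the days, from -0.14 to 0.50 with 3 of them above 0, but all 6 were higher in FVF+ at E12.5, by 0.42 to 1.21.

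The other 5 proteoglycan-cutting Adamts genes were lower in FVF+ cells: Adamts4, Adamts5, Adamts8, Adamts15 and Adamts20. The differences were -1.97 for Adamts5, whose sorts overlapped, and -0.75 for Adamts20. They were -1.45 for Adamts4, -1.63 for Adamts8 and -1.40 for Adamts15, each without overlap of the sorts. Adamts1 and Adamts5 are immediate neighbours in the genome, as are Adamts15 and Adamts8, with no other protein-coding gene between them in the RefSeq table. The first pair differed between the sorts in opposite directions, and the second pair in the same direction. Both measured procollagen-trimming enzymes were lower in FVF+, Adamts3 by 1.21 and Adamts14 by 0.86 on the log2 scale. All 16 probe sets of Adamts3 were lower in FVF+, by 0.53 to 2.30 in size. Adamts12 had the largest difference of the family, with 7.47 to 8.23 in FVF+ and 9.96 to 11.50 in FVF- samples (difference -2.82, SE 0.09). Adamts7, Adamts10 and Adamts17 were lower by 1.58, 1.48 and 1.65, also without overlap.

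**Figure D3:**
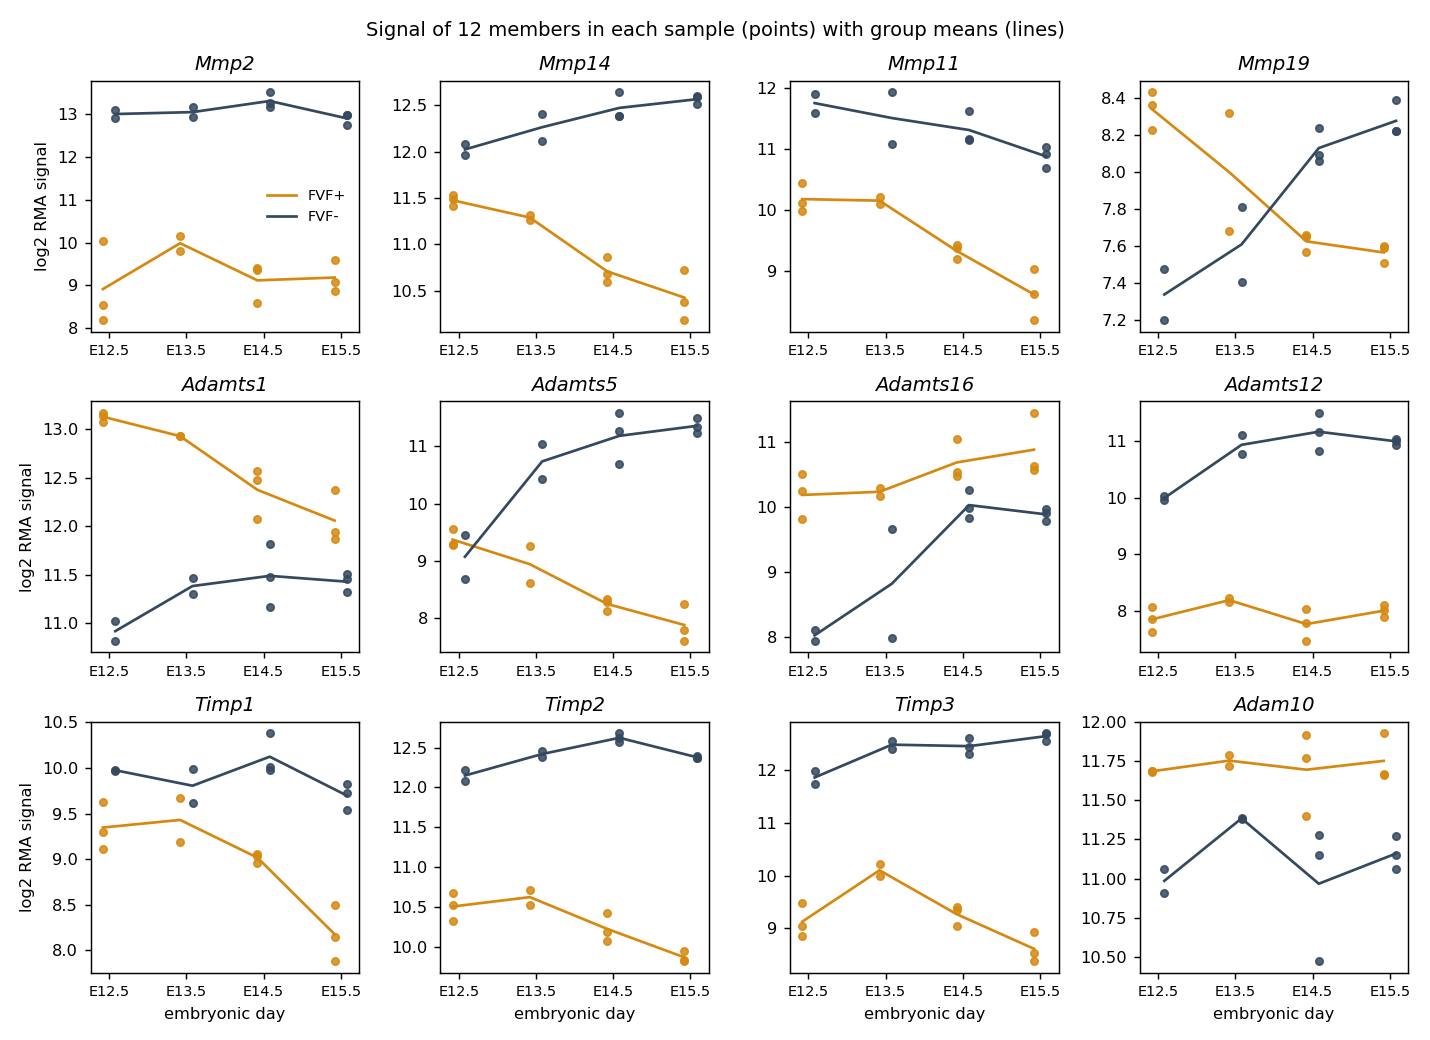
Log2 RMA signal (y axes, each panel with its own range) of 12 members in each of the 21 samples by embryonic day, FVF+ in orange and FVF- in dark blue, with lines through the group means. Mmp2 and Adamts12 keep a gap between the sorts on every day, while the lines of Adamts5 and Mmp19 cross.

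From E12.5 to E15.5 members changed in both sorts. In FVF+ cells 18 members fell (19.3% of all genes) and 16 rose (27.6%). Of the 78 members 6 fell and 0 rose there by at least 2-fold, where 3.26% of all genes fell and 2.13% rose by as much. In FVF- cells 19 rose (10.7% of all genes) and 5 fell (9.7%), and 7 rose and 1 fell by at least 2-fold, against 2.53% and 0.793% of all genes. Read against the shares without a fold limit, falls in FVF+ were near the background and rises in FVF- above it. The FVF+ rises were at most 0.62, and their count rested on the scaling. With quantile normalization 6 rose and 19 fell, and with cyclic loess normalization 8 rose and 19 fell. Counting any difference among the 4 days, 32 members passed the F test in FVF+ (45.0% of all genes) and 28 in FVF- (27.4%).

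The falls in FVF+ included enzymes of both secreted families and 3 inhibitors. Adamts6 read 9.92, 10.45 and 10.20 at E12.5 and 9.11, 7.82 and 8.36 at E15.5, a change of -1.76 (SE 0.30, adjusted p = 0.00017). Mmp11 read 10.44, 9.98 and 10.12 at E12.5 and 8.62, 9.04 and 8.19 at E15.5, a change of -1.56 (SE 0.21, adjusted p = 2.6e-05). For both genes the days did not overlap in FVF+. They fell in FVF- cells too, Adamts6 by 1.20 and Mmp11 by 0.87, where without FVF- E12.5 replicate 1 the changes were -1.17 (adjusted p = 0.0976) and -0.72 (adjusted p = 0.157). The Adamts6 change there was -1.23 (adjusted p = 0.0806) without replicate 2 of that day. Timp1 read 9.11, 9.30 and 9.63 at E12.5 and 7.88, 8.50 and 8.15 at E15.5 in FVF+, a change of -1.17 (SE 0.17, adjusted p = 4.2e-05). Its FVF- samples were at 9.98 and 9.97 at E12.5 and 9.73, 9.54 and 9.82 at E15.5, and the change of -0.28 there did not pass the test (adjusted p = 0.346). Adamts5, Adamts1 and Mmp14 fell in FVF+ by 1.49, 1.07 and 1.05, and Adamts9 and Mmp19 by 0.91 and 0.77. The other 7 falls, of Adamts15, Adamts7, Adam11, Adam5, Adamts19, Adam1a and Adam23, were between 0.38 and 0.57 in size. Of these, Adam1a and Adamts19 were at -0.35 (adjusted p = 0.127) and -0.38 (adjusted p = 0.109) without FVF+ E15.5 replicate 3. Timp2 fell in FVF+ by 0.64 (SE 0.10) and Timp3 by 0.51 (SE 0.16, adjusted p = 0.0141). The Timp3 fall was -0.33 (adjusted p = 0.0894) without FVF+ E12.5 replicate 1. That sample read 9.49 for Timp3, against 9.04 and 8.86 in the other 2, and the days overlapped. Adam23 and the germline gene Adam4 fell by 0.49 and 0.61, and without FVF+ E12.5 replicate 2 their changes were -0.20 (adjusted p = 0.137) and -0.37 (adjusted p = 0.233). Marker lists moved in FVF+ over the same days: 5 of 8 endocrine and 6 of 8 acinar markers rose. The 10 mesenchymal markers had 4 rises and 1 fall, and the 8 epithelial markers 1 rise and 2 falls. Each of the remaining lists had 1 to 3 rises and 0 falls. Among all genes 27.6% rose and 19.3% fell. The epithelial list median went from 12.89, 12.90 and 12.94 at E12.5 to 12.64, 12.62 and 12.69 at E15.5. The endocrine list median went from 11.09, 11.11 and 10.45 at E12.5 to 12.29, 12.52 and 12.27 at E15.5, and the acinar one from 10.67, 10.62 and 10.78 to 13.04, 12.76 and 12.86. The part of these lists in the falls was not tested.

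Rises in FVF+ were led by Mmp24, at 0.62 (SE 0.10, adjusted p = 0.00013), Mmp28, at 0.58, and Adamts13, the enzyme that cuts von Willebrand factor, at 0.50. Adam34l and Mmp17 rose by 0.50 and 0.49, and with quantile normalization Mmp17 was at 0.34 (adjusted p = 0.063). Timp4 rose by 0.30 (adjusted p = 0.0376) at dim signals, but its change was 0.16 (adjusted p = 0.235) with quantile and 0.14 (adjusted p = 0.318) with cyclic loess normalization, and 0.28 (adjusted p = 0.093) without FVF+ E12.5 replicate 1. Adamts16 read 9.81, 10.51 and 10.24 at E12.5 and 11.45, 10.57 and 10.63 at E15.5, and its change of 0.70 did not pass the test (adjusted p = 0.0747), whereas without either of the FVF- E13.5 samples it did (adjusted p = 0.0139 in each case).

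In FVF- cells 11 of 18 Adamts genes rose (10.7% of all genes) and 2 fell (9.7%). With only 2 samples at E12.5, several of these calls rested on both of them. Adamts5, an aggrecan- and versican-cutting enzyme, read 9.46 and 8.69 at E12.5, 11.04 and 10.43 at E13.5, and 11.34, 11.49 and 11.23 at E15.5. No E15.5 sample overlapped E12.5, and the rise was 2.28 (SE 0.27, adjusted p = 1.5e-05), or 4.85-fold. Adamts14 rose by 1.28 (SE 0.14) and Adamts12 by 1.0 (SE 0.18), while Adamts3, of the same procollagen-trimming kind as Adamts14, fell by 0.47 (SE 0.11, adjusted p = 0.00389). Without FVF- E12.5 replicate 1 the Adamts3 change was -0.40 (adjusted p = 0.0723). Adamts4, Adamts8 and Adamts15 rose by 0.85, 0.51 and 0.52. Without FVF- E12.5 replicate 1 the Adamts8 change was 0.54 (adjusted p = 0.0553) and that of Adamts15 0.45 (adjusted p = 0.122), and without replicate 2 of that day Adamts8 was at 0.48 (adjusted p = 0.0877). In the Mmp family Mmp17 rose by 1.48 (SE 0.15), Mmp23 by 1.24 (SE 0.14), Mmp19 by 0.94 and Mmp14 by 0.54, the last of them at 0.49 (adjusted p = 0.0864) without FVF- E12.5 replicate 1. Timp3 rose by 0.78 (SE 0.18, adjusted p = 0.0043), or by 0.67 (adjusted p = 0.0729) without FVF- E12.5 replicate 2, and the other Timp genes were not called in FVF-.

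Markers of several cell types also rose in FVF- cells between these days. They were 5 of 6 mesothelial markers, 4 of 7 of smooth muscle and pericytes, 4 of 8 endothelial, 6 of 8 acinar, 6 of 9 mast cell and neutrophil, 3 of 8 epithelial and 3 of 10 macrophage markers. Of 10 mesenchymal markers 4 rose and 1 fell. Red blood cell markers went mostly the other way, with 1 of 6 rising and 3 falling. Of 6 neural crest, glia and neuron markers 1 rose and 1 fell, and of 8 endocrine markers 1 rose. Among all genes 10.7% rose and 9.7% fell. The mesothelial list median went from 9.38 and 9.34 at E12.5 to 11.45, 11.11 and 11.48 at E15.5. The smooth muscle and pericyte median went from 10.23 and 10.19 to 11.60, 11.30 and 11.43, and the endothelial one from 9.76 and 10.09 to 11.23, 10.45 and 11.39. The part of these lists in the FVF- rises was not tested.

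Adamts16, a member higher in FVF+, rose in FVF- cells by 1.86 (SE 0.35, adjusted p = 0.00096). It read 7.94 and 8.11 in the FVF- samples of E12.5 and 9.66 and 7.98 in those of E13.5. On E14.5 it read 9.99, 9.83 and 10.27, and on the last day 9.78, 9.97 and 9.91. The median of the 8 epithelial markers in the same samples was 8.18 and 8.20 on E12.5 and 8.51 and 8.66 on the next day, then 9.40, 8.40 and 10.05 on E14.5, and 8.60, 9.62 and 9.12 on the last day. The median of the 8 acinar markers there was 7.40 and 7.68 on E12.5, 8.06 and 7.30 on the next day, 8.52, 8.0 and 9.36 on E14.5, and 9.47, 9.68 and 10.28 on the last day. At E13.5 the sample with the higher Adamts16 signal had the lower epithelial and the higher acinar median. Mmp8, the collagenase of neutrophils, rose in FVF- by 1.12 (SE 0.25, adjusted p = 0.00346), from 5.76 and 5.77 to 7.46, 6.21 and 6.99. The median of the 9 mast cell and neutrophil markers there went from 7.95 and 7.76 at E12.5 to 9.53, 9.23 and 9.47 at E15.5. The part of these marker lists in the results was not tested.

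**Figure D4:**
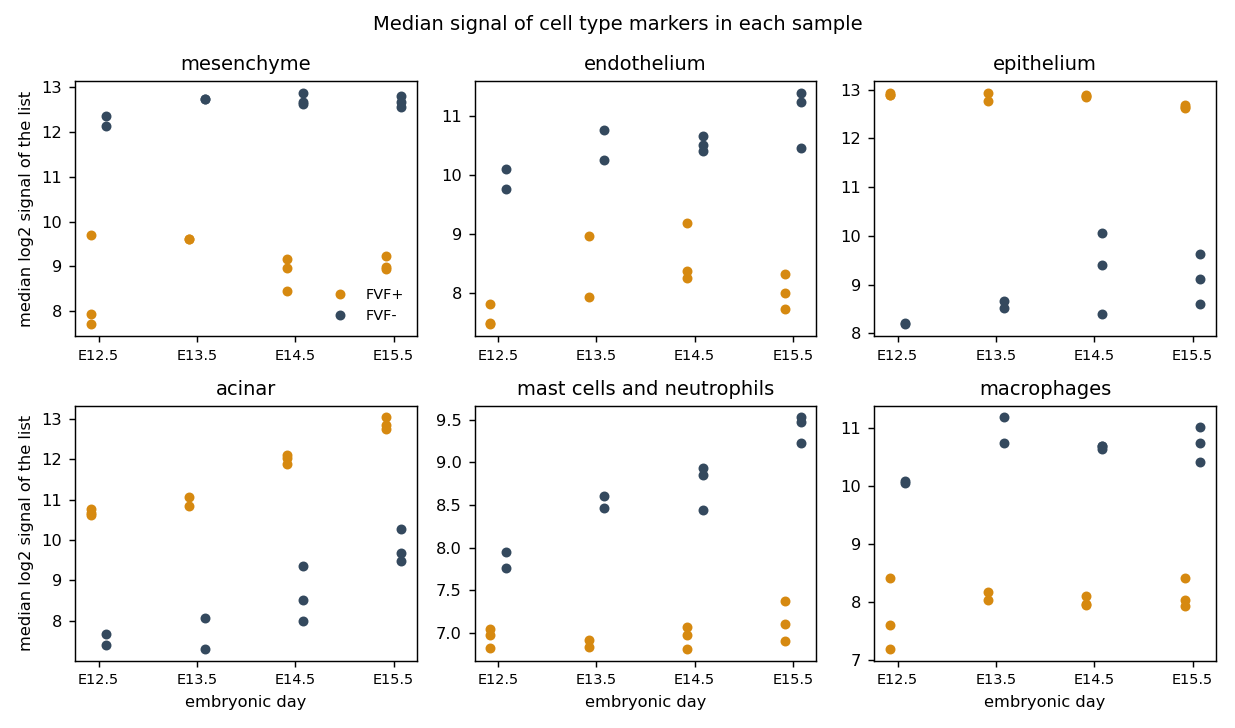
Median log2 signal (y axes, each panel with its own range) of 6 cell type marker lists in each sample by embryonic day, FVF+ in orange and FVF- in dark blue. The FVF+ E12.5 replicate 1 lies at 9.69 in the mesenchyme panel, above the other 2 samples of its group, and the acinar and mast cell lists lie higher in FVF- samples at E15.5 than at E12.5.

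The E15.5 minus E12.5 change was tested for a difference between the sorts, on the same samples that gave the changes within each sort. It was lower in FVF+ than in FVF- for 16 members (8.83% of all genes) and higher for 2 (10.8%). Adamts5 differed most: it read 9.28, 9.29 and 9.55 in FVF+ at E12.5 and 8.25, 7.61 and 7.80 at E15.5, while it rose in FVF-. The difference of the changes was -3.77 (SE 0.36, adjusted p = 3e-06). At E12.5 the sorts overlapped in Adamts5 (difference 0.30, SE 0.27, adjusted p = 0.418), and at E15.5 FVF+ was lower by 3.47 on the log2 scale (SE 0.24). Adamts1, its neighbour in the genome, moved in the same sense, from 13.08, 13.14 and 13.17 to 12.37, 11.87 and 11.94 in FVF+ and from 11.02 and 10.82 to 11.32, 11.46 and 11.51 in FVF-. Its difference of changes was -1.58 (SE 0.23, adjusted p = 0.00019), and the sort difference went from 2.21 at E12.5 to 0.63 at E15.5. The Adamts1 rise in FVF-, at 0.51, was near the threshold (adjusted p = 0.0457), and was 0.41 (adjusted p = 0.291) without FVF- E12.5 replicate 2.

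In Mmp14 a gap between the sorts that stood at E12.5 was wider at E15.5. It read 11.53, 11.41 and 11.49 in FVF+ and 11.97 and 12.08 in FVF- at E12.5, and 10.72, 10.18 and 10.38 against 12.59, 12.51 and 12.60 at E15.5. The sort difference went from -0.55 (SE 0.13) to -2.14 (SE 0.12), and the changes differed by -1.59 (SE 0.18, adjusted p = 1.5e-05). Timp1, Timp2 and Timp3 were among the 16, with differences of -1.30 for Timp3, -0.89 for Timp1 and -0.87 for Timp2. The Timp1 difference missed the threshold without either FVF- E12.5 sample (adjusted p = 0.0585 without replicate 1 and 0.0744 without replicate 2), without FVF+ E12.5 replicate 3 (-0.75, adjusted p = 0.0548) and without FVF+ E15.5 replicate 1 (-0.74, adjusted p = 0.0502). Mmp2, which Mmp14 and Timp2 act on, was not called, with 0.37 (SE 0.50, adjusted p = 0.634). Without FVF+ E12.5 replicate 1, the sample with the higher mesenchymal median, the Mmp2 difference of changes was 0.93 (adjusted p = 0.0593), and without replicate 3 of that group it was 0.0 (adjusted p = 0.995).

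The sort difference was called in opposite directions on different days in 2 members, Mmp19 and Adamts19. Mmp19 read 8.23, 8.36 and 8.43 in FVF+ and 7.48 and 7.20 in FVF- at E12.5, and 7.60, 7.51 and 7.59 against 8.22, 8.39 and 8.22 at E15.5. It was higher in FVF+ by 1.0 at E12.5 (SE 0.15, adjusted p = 3.2e-05) and lower by 0.71 at E15.5 (SE 0.13, adjusted p = 0.00026), without overlap on either day. Adamts19 was higher by 0.69 at E12.5 (SE 0.18) and lower by 0.47 at E15.5 (SE 0.16, adjusted p = 0.0219). Both are dimmer members. For Adamts19 the difference at E12.5 was 0.61 (adjusted p = 0.0595) without FVF- E12.5 replicate 1, and that at E15.5 was -0.42 without FVF- E15.5 replicate 3 (adjusted p = 0.0797) or FVF+ E15.5 replicate 3 (adjusted p = 0.078), and -0.45 without FVF- E15.5 replicate 1 (adjusted p = 0.0582) or FVF+ E15.5 replicate 2 (adjusted p = 0.0578).

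**Figure D5:**
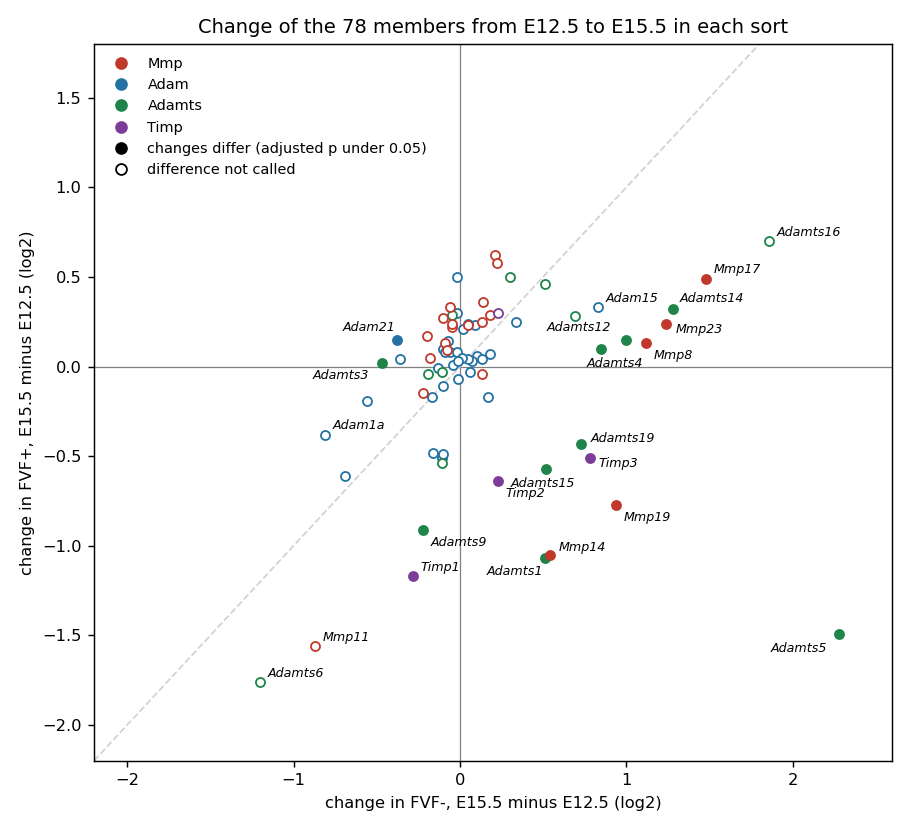
Change from E12.5 to E15.5 in FVF- (x axis, log2) against the change in FVF+ (y axis, log2) for the 78 members, coloured by family; filled points mark changes that differed between the sorts and the dashed line marks equal change. Adamts5 lies farthest from the line, at 2.28 in FVF- and -1.49 in FVF+, and 16 of the 18 filled points lie below the line.

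Other genes of the same proteolytic system were counted from lists chosen by function. Their counts are set beside the shares of all genes, 30.5% higher and 25.2% lower in FVF+. Of 15 activators and inhibitors of Mmp and Adam proteins 4 were higher and 5 lower in FVF+, near those shares. Reck, a membrane-anchored inhibitor of Mmp proteins, was lower by 2.24 (SE 0.07) and fell in FVF+ from 10.85, 10.43 and 10.47 to 8.69, 9.08 and 8.66, a change of -1.77 (SE 0.13, adjusted p = 2.6e-08). In FVF- the Reck change was -0.33 (adjusted p = 0.129), and the changes differed by -1.45 (SE 0.20, adjusted p = 8.7e-05). Tspan15 and Tspan33, tetraspanins that guide Adam10, were higher in FVF+ by 1.15 and 1.19, the same sort as Adam10. Other tetraspanins of the list did not all share this direction. Tspan10 and Tspan17 had medians of 7.73 and 8.60 over the FVF+ samples and 7.89 and 8.86 over the FVF- samples. For Tspan5 the medians were 10.46 in FVF+ and 10.18 in FVF-. Tspan14, of the same group, was not called (-0.09, adjusted p = 0.279), nor was Furin, a convertase that removes the propeptide of many members (0.14, adjusted p = 0.127). From E12.5 to E15.5 this list had 6 genes that rose (27.6% of all genes) and 2 that fell (19.3%) in FVF+. In FVF- 7 of its genes rose (10.7% of all genes).

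The same shares of all genes, 30.5% higher and 25.2% lower in FVF+, apply to each list count that follows. Of 8 measured genes of plasminogen activation 2 were higher and 5 lower in FVF+. Plat, the tissue plasminogen activator, lay at 7.04 to 8.26 in FVF+ and at 10.68 to 11.40 in FVF- samples, a difference of -3.43 (SE 0.12). Serpinf2, the plasmin inhibitor, was higher in FVF+ by 2.99 (SE 0.13). Of 7 astacin proteases and procollagen enhancers 3 were lower and 2 higher, with Pcolce, which speeds procollagen trimming, at -2.01. Of 6 Adamts-like matrix proteins, which lack the protease domain, 5 were lower and 1 higher. Of 22 measured substrates 15 were lower and 4 higher in FVF+. The proteoglycan substrates of Adamts1 and Adamts5 parted by sort: Vcan, or versican, was lower in FVF+ by 3.32 on the log2 scale, and Acan, or aggrecan, was higher by 3.19. Of 6 measured EGF receptor ligands 3 were higher and 1 lower in FVF+, with Tgfa at 0.82 and Hbegf at -0.50. Of 11 other matrix-cutting enzymes 8 were lower and 2 higher, and Fap, a serine protease of mesenchyme, rose in FVF- by 2.48 (SE 0.21, adjusted p = 6.1e-07), from 8.58 and 7.61 to 10.64, 10.52 and 10.58.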

How the data were processed

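RNA of sorted cells was measured on Affymetrix mouse gene arrays, and the deposited table holds log2 signals that the authors made by RMA (affy 1.44.0, per the submitters' processing notes). The table had 23305 probe sets, 20728 of them with 1 symbol in the platform annotation, 1174 with several and 1403 with none. Array medians ran from 8.68 to 8.82. Arrays give no counts, so their number limits the precision. Unspecific signal can remain after RMA, so differences of dim genes may be compressed.

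Each gene was represented by its probe set of highest mean, and 3 members had more than 1. Group means of all 21 samples were fitted with limma 3.58.1 in R 4.3.3 (13 residual degrees of freedom) with Benjamini-Hochberg adjustment over 19296 genes. The method was run on simulated data with noise drawn independently for each gene and sample. That run cannot show how deviations shared by many genes of a sample would act. Members and lists were chosen with earlier results of these data known. Named were the members with the largest called changes in each comparison, all Timp genes, the brightest uncalled and the smallest called members per family and those with opposite calls on different days, and other members given with values were chosen after their values were seen. Alternatives covered probe sets, dim genes, normalization, moderation, array weights, replicate numbers, letter-coded arrays, days, samples and the fold threshold. A grouping by the zinc-binding motif of the proteins was not run. Samples of the same day and replicate number correlated in their deviations between -0.37 and 0.49. With 2 or 3 samples per group these correlations cannot settle whether the numbers paired samples. Promoters came from RefSeq (GRCm38.p6).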

Additional observations from a re-analysis of the deposited data

Results flagged for a closer look

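The E15.5 minus E12.5 change differed between FVF+ and FVF- cells for 18 members by limma's test of the difference itself, adjusted over all genes. It was lower in FVF+ for the proteoglycan-cutting enzymes Adamts5 (-3.77), Adamts1 (-1.58), Adamts15 (-1.09), Adamts4 (-0.75) and Adamts9 (-0.69). The same held for Adamts19 (-1.16), Adamts14 (-0.96) and Adamts12 (-0.85). Among the Mmp genes it was lower for Mmp19 (-1.71), Mmp14 (-1.59), Mmp23 (-1.0), Mmp8 (-1.0) and Mmp17 (-0.99). The inhibitors Timp3 (-1.30), Timp1 (-0.89) and Timp2 (-0.87) completed the 16. It was higher in FVF+ for the procollagen-trimming enzyme Adamts3 (0.49) and the germline gene Adam21 (0.53). Some of these rested on single samples or settings. The Mmp8 difference (adjusted p = 0.0434) missed the threshold with most of the samples left out in turn, at -0.71 (adjusted p = 0.0927) without FVF- E15.5 replicate 1, and with median centring it was -0.93 (adjusted p = 0.0553). Timp1 was at -0.90 (adjusted p = 0.0585) without FVF- E12.5 replicate 1, -0.89 (adjusted p = 0.0744) without replicate 2 of that day, -0.75 (adjusted p = 0.0548) without FVF+ E12.5 replicate 3 and -0.74 (adjusted p = 0.0502) without FVF+ E15.5 replicate 1. Adamts12 was at -0.81 (adjusted p = 0.0812) without FVF- E12.5 replicate 2, and Adamts9 at -0.72 (adjusted p = 0.0551) without that sample. Adamts9 was at -0.66 (adjusted p = 0.0624) and Adamts3 at 0.42 (adjusted p = 0.104) without FVF- E12.5 replicate 1. With cyclic loess normalization Adam21 was at 0.37 (adjusted p = 0.0528). Adamts3 was at 0.34 (adjusted p = 0.0512) with its probe sets averaged, at 0.46 and 0.45 (adjusted p = 0.0508 in each case) without FVF+ E12.5 replicate 2 or FVF+ E15.5 replicate 3, and at 0.43 (adjusted p = 0.0528) without FVF- E15.5 replicate 2. The other members of the 18 kept the call in every alternative that gave a value, other than the 2-fold threshold.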

How the results depend on the processing

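Over the 78 members 320 differences were recomputed, those of members outside the 37 named by the rule being added after seeing the data. Of 129 called differences 0 changed sign under any alternative and 46 lost the call in at least 1 other than the 2-fold threshold, while 79 uncalled ones changed sign, always without a call. With the replicate block by day and number (consensus correlation 0.012) the counts were 15 higher and 33 lower, and 1 call of a member was gained and 0 lost. With the replicate block by number they were 14 and 32, with 4 calls lost and 3 gained. With samples left out in turn, members higher in FVF+ ranged from 5 to 9 at E12.5, 3 to 7 at E13.5 and 5 to 9 at E15.5. Over the days they ranged from 9 to 17 for rises in FVF+, 11 to 19 for rises and 1 to 7 for falls in FVF-, and 18 to 29 for any day in FVF-. A change higher in FVF+ than in FVF- was called for 1 to 4. The lowest FVF- values, 11 rises, 1 fall and 18 for any day, came without FVF- E12.5 replicate 1. The 5 higher at E12.5 came without either FVF- sample of that day, the 9 at E15.5 without FVF+ E15.5 replicate 2, and 9 to 10 rises in FVF+ without FVF+ E12.5 replicate 2 or 3 or any FVF+ E15.5 sample. The 3 higher at E13.5 came without FVF- E13.5 replicate 2 or FVF+ E13.5 replicate 1.

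The fit without dim genes kept only the 33 brighter members, which could enter that set through the group where they were high. Its counts therefore cannot test the results and are not given. Those of higher members over the 4 days and at E13.5, rises in FVF+, upward differences and differences on any day were smaller. At 2-fold, higher members numbered 2 over the days, 4 at E12.5, 2 a day later and 0 on each of the last days, and 18 were lower at E12.5. At 2-fold 0 rose and 6 fell in FVF+, 7 rose and 1 fell in FVF-, and the changes differed upward in 0 and downward in 8. Rises in FVF+ were 6 with quantile and 8 with cyclic loess normalization, which also gave 3 higher at E13.5 and 1 upward difference. Median centring gave 10 higher at E15.5 and 4 upward differences. Array weights gave 8 and 6, the intensity trend 8 higher at E15.5. Fits on the samples of the comparison alone gave 2 higher at E13.5, 5 at E14.5 and 4 upward differences, and averaging the probe sets of each gene gave 1. The cause was not tested. The fit on the samples of the comparison alone gives no value for the mean of the days, and the fit without E13.5 gives none for that day. Signal near background limits the dimmer members.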
